A study of Bos taurus with 35 samples.

Results

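The genes described here encode proteins of the cytosolic ribosome, the particle that translates messenger RNA in the cytoplasm. They were followed in beef *longissimus thoracis* (*LT*), the long muscle of the back, over 72 h *post-mortem*. Members were chosen by their upregulation in these samples and by name: they are the genes with a symbol of the RPL or RPS series (or RPSA, RPLP0, RPLP1 or RPLP2, with the RPS6K kinases left out) in the study's table of differentially expressed (DE) genes. This gave 62 Ensembl IDs with 61 symbols, of 27607 genes in the count table and 14630 genes tested. All 62 passed the filter on low counts and had at least 1 read in every sample. Of these, 27 belong to the small and 35 to the large ribosomal subunit.

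Every member entered the table through its fold change and FDR at 72 h against 0 h, 3 of them at 48 h as well. The fold changes against 0 h are therefore given as a description. No member entered through the lists of 6 or 24 h, so that the step from 6 to 24 h shares no samples with the choice, while the step from 24 to 48 h shares its 48 h samples with the 3 members of the 48 h list. The table names only DE genes. Of 79 symbols listed for the proteins of both subunits 60 were members, and FAU is given below from among the other 19. The rest are not reported here, so that nothing can be said of ribosomal protein genes that did not change.

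The samples were muscle cores from the left carcass sides of 7 British x Continental crossbred heifers, each sampled at 0 h (45 min after slaughter), 6, 24, 48 and 72 h while the carcasses hung in a cooler at 4°C. No treatment was applied, the groups differ in time only, and each of the 35 cores gave its own RNA-Seq library of stranded mRNA. Values are deposited read counts per gene, with 20568418 to 104275821 counts per library (median 40133660), given below as CPM, counts scaled to the size of the library, after TMM normalization. Replicates are animals (n = 7 at each time point). A core holds several cell types, and in such bulk samples fewer cells of a type and less RNA per cell cannot be told apart.

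A ribosome is built from a small subunit, which reads the messenger RNA, and a large subunit, which joins the amino acids. Each holds ribosomal RNA and many proteins, most of them present once per particle, so that their genes are usually expressed in step. Many of these messenger RNAs begin with a terminal oligopyrimidine (TOP) tract, through which mTOR signalling sets their translation. In muscle, the number of ribosomes is a known limit on protein synthesis.

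The 62 genes took up more of the libraries with time. Their share of all counts was 1.32% ± 0.087 (SD, n = 7) at 0 h and 1.54% ± 0.13 at 6 h. It then went from 1.58% ± 0.13 at 24 h to 1.73% ± 0.15 at 48 h, and ended with 2.02% ± 0.21 at 72 h. At 0 h the share ran from 1.22% in animal 107 to 1.48% in animal 104 (median 1.31%). At 72 h it ran from 1.73% in animal 202 to 2.38% in animal 206 (median 1.99%), so that the 2 time points did not overlap. Each animal was above its own 0 h share at every later time point, and the ratio of 72 h to 0 h was 1.53 ± 0.19, from 1.34 to 1.89. On the scale of TMM normalized CPM the ratio was 1.72 ± 0.15. The members were chosen as higher at 72 h than at 0 h in these samples. That choice favours both the separation and the ratios, which are a description. The animals did not rise in parallel: animal 101 had the highest share at 6 h (1.76%) and lay at 1.46% at 24 h.

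**Figure D1:**
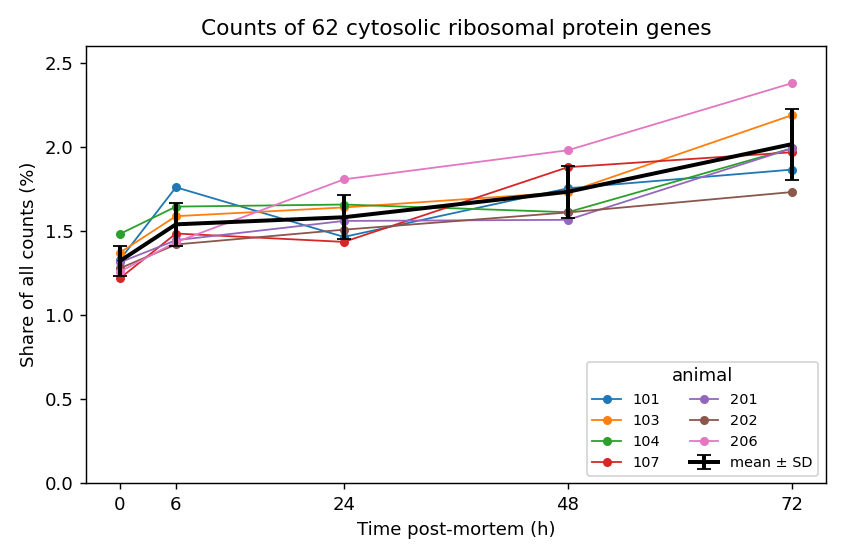
Share of all counts (%) taken by the 62 ribosomal protein genes against time *post-mortem* (h), with a coloured line for each of the 7 animals and the mean ± SD in black. The mean rises from 1.32% at 0 h to 2.02% at 72 h, and the line of animal 101 falls between 6 and 24 h.

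The increase at 72 h covers the whole set because every member was chosen for it. Against 0 h, the members had a median log2 fold change of 0.21 (6 h), 0.24 (24 h), 0.48 (48 h) and 0.78 (72 h). The median of all genes tested stayed between -0.0048 and 0.014, but TMM scaling itself tends to hold it near 0. Scaled by total counts alone, the median of all genes was -0.09 at 48 h and -0.16 at 72 h. Genes were called upregulated when the FDR was below 0.05 with a fold change of more than 1.5. By this criterion 0 members were upregulated at 6 h (0.349% of all genes tested), 0 members at 24 h (0.725%), 3 members at 48 h (2.96%) and, as their choice required, 62 at 72 h (9.8%). With no fold change threshold, 23 were higher at 6 h (1.28% of all genes), 55 members at 24 h (4.07%), and all 62 both at 48 h (21.9%) and later at 72 h (33.1%). No member was downregulated at 6 h (0.185% of all genes), 24 h (0.95%) or 48 h (6.3%). At 72 h (15.4%) none could be, since every member had entered as upregulated at that time point. The downregulated part of the study's table at 72 h is held here in part, so a ribosomal protein gene that fell may be missing. The numbers at 6 h leaned on single animals: 0 members were higher when animal 107 was left out, 1 without animal 101 and 45 without animal 206. Without animal as a block 0 were higher at 6 h and 3 at 24 h. Samples of 72 h lay above all samples of 0 h for 61 members (7.9% of all genes tested), and samples of 48 h for 52 (3.11%). The members were chosen on the 72 h and 0 h samples, which favours such a separation, and the shares are of genes not so chosen.

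**Figure D2:**
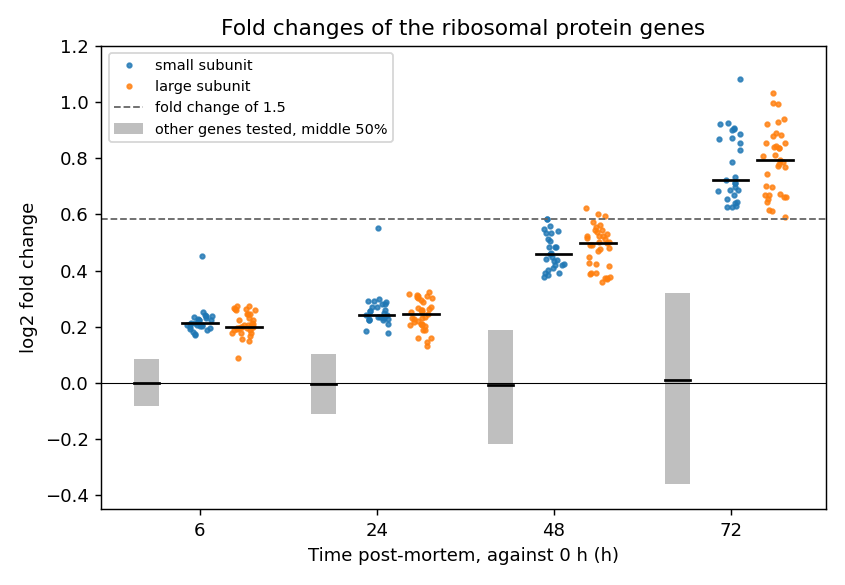
log2 fold change of each ribosomal protein gene (points) at 6, 24, 48 and 72 h against 0 h, with small subunit genes in blue, large subunit genes in orange and black bars at the medians. Grey bars span the middle 50% of the other genes tested, which widens from -0.08 to 0.08 at 6 h to -0.36 to 0.32 at 72 h, while the dashed line at a fold change of 1.5 is passed by all 62 members at 72 h.

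At 72 h the log2 fold changes of the members ran from 0.59 to 1.08, with an SD of 0.12 over the 62 genes. The choice of members cut this range from below at 0.58. The SD over all genes tested, 0.64, has no such cut and is not a like measure. The standard error of a member had a median of 0.06. In each of the 7 animals all 62 members were higher at 72 h than at 0 h (21.3% of all genes tested). The choice of the members on these same samples favoured that result, so it is a description. All 62 were also higher in each animal at 48 h (15% of all genes), a comparison that shares its 0 h samples with the choice. The animal medians at 72 h ran from 0.63 in animal 104 to 0.94 in animal 201. Closest to the threshold, a log2 fold change of 0.58, lay RPL8 (0.59), RPL9 (0.61) and RPL11 (0.61 ± 0.05, SE). Members just outside it could not be given, because only DE genes had names. Scaled by total counts alone the number upregulated at 72 h was 34, with a median of 0.61 beside -0.16 for all genes, and a glmTreat test, which asks whether the fold change itself exceeds 1.5, gave 40.

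**Figure D3:**
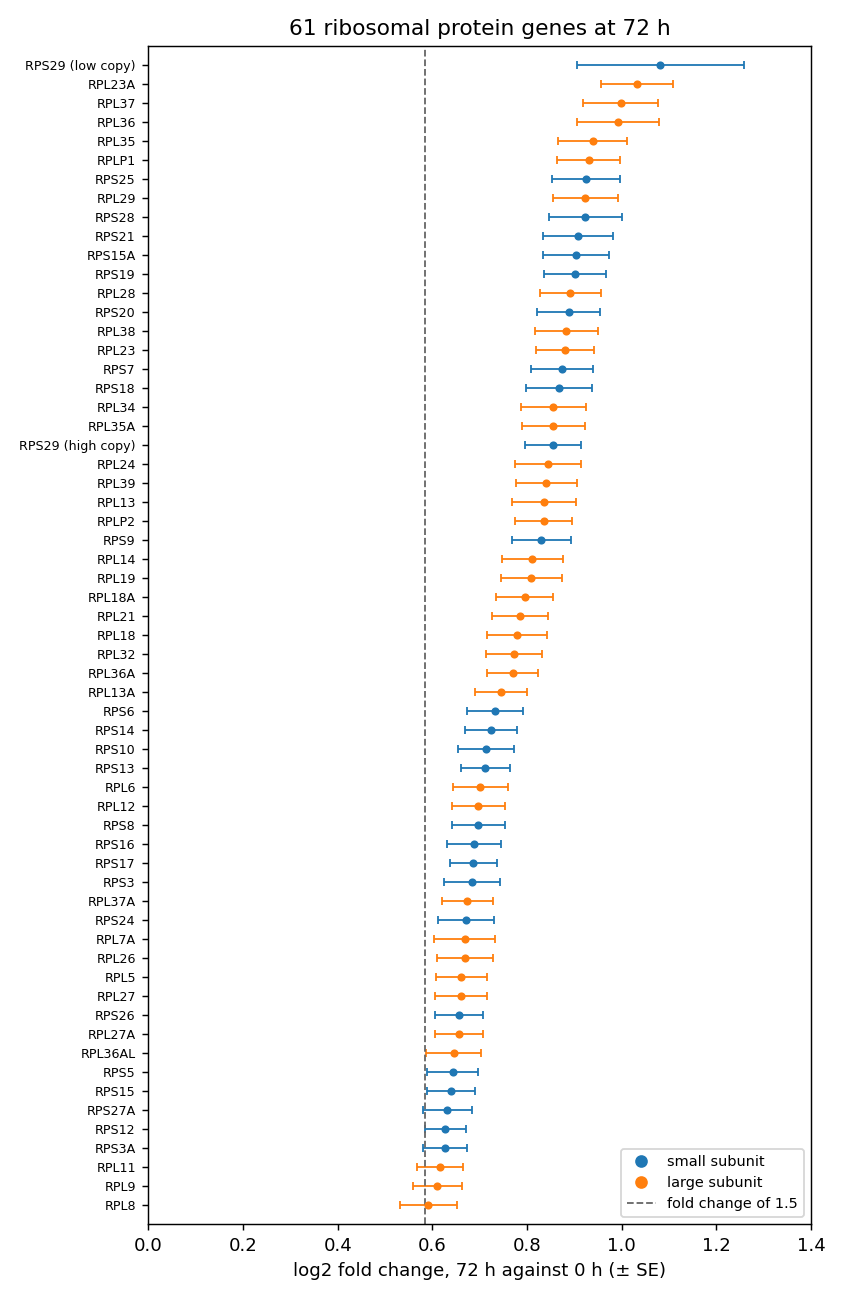
log2 fold change at 72 h against 0 h of 61 of the 62 genes, sorted, with bars of ± 1 standard error, blue for the small and orange for the large subunit. Values run from 0.59 (RPL8) to 1.08 (the RPS29 copy of low counts), all to the right of the dashed line at a fold change of 1.5.

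Among the proteins of the small subunit, RPS6 (ENSBTAG00000023462) is the substrate after which the S6 kinases are named. Its level was 166 to 211 CPM at 0 h (median 195) and 276 to 376 CPM at 72 h (median 319). The log2 fold change at 72 h was 0.73 ± 0.06 (SE) and the samples of the 2 time points did not overlap. RPS3, which lies near the entry of the messenger RNA and also acts in DNA repair, had 263 to 370 CPM at 0 h (median 332) and 442 to 601 CPM at 72 h (median 505). RPS19, whose loss causes Diamond-Blackfan anaemia in humans, had 129 to 169 CPM at 0 h (median 143) and 228 to 329 CPM at 72 h (median 271). The log2 fold change was 0.68 for RPS3 and 0.90 for RPS19, without overlap in either gene.

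RPS27A is made as a fusion of ubiquitin with a small subunit protein and so serves protein breakdown as well as the ribosome. It had 193 to 234 CPM at 0 h (median 196) and 280 to 371 CPM at 72 h (median 309), with a log2 fold change of 0.63. RPS3A and RPS12, also of the small subunit, had the smallest increases of that subunit beside it. RPS3A went from 376 to 469 CPM at 0 h (median 424) to 611 to 698 CPM at 72 h (median 633), and its log2 fold change was 0.63 ± 0.05 (SE). RPS12 had 202 to 252 CPM at 0 h (median 230) and 319 to 378 CPM at 72 h (median 360), with a log2 fold change of 0.63 ± 0.04, the smallest standard error of the set. RPS12 and RPS3A thus had the most precise estimates of the small subunit. RPS21, which sits at the surface of the small subunit, had 55.2 to 78.9 CPM at 0 h (median 62.8), 97.0 to 147 CPM at 72 h (median 118) and a log2 fold change of 0.91.

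The symbol RPS29 stood for 2 Ensembl IDs. ENSBTAG00000052337 had 115 to 166 CPM at 0 h (median 148) and 210.5 to 285 CPM at 72 h (median 264), with a log2 fold change of 0.86 ± 0.06 (SE). ENSBTAG00000025666 held 9 to 68 reads per sample. Its level was 0.279 to 0.506 CPM at 0 h (median 0.385) and 0.450 to 1.14 CPM at 72 h (median 0.803). It was the 1 member whose samples of 0 and 72 h overlapped, and it combined the highest log2 fold change, 1.08, with the largest standard error, 0.18. Ribosomal protein genes have many near-identical processed copies in mammalian genomes, so how the mapping placed shared reads bears on both IDs and on the set as a whole, and was not tested.

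In the large subunit the biggest increases were those of RPL23A, RPL37 and RPL36, the genes that were already upregulated at 48 h. RPL23A (ENSBTAG00000046394), which lies at the exit of the tunnel through which the new protein leaves, had 81.4 to 107 CPM at 0 h (median 91.2), 124 to 177 CPM at 48 h (median 142) and 154 to 228 CPM at 72 h (median 187). Its log2 fold change was 0.62 ± 0.08 (SE) at 48 h and 1.03 ± 0.08 at 72 h. RPL37 had 113 to 142 CPM at 0 h (median 116), 153 to 211 CPM at 48 h (median 187) and 192 to 291 CPM at 72 h (median 237). RPL36 had 93.8 to 118 CPM at 0 h (median 104), 136 to 212 CPM at 48 h (median 149) and 171 to 275 CPM at 72 h (median 207). In all 3 genes the samples of 48 h and of 72 h lay above every sample of 0 h. The 3 calls at 48 h were close to the threshold, with log2 fold changes of 0.60 for RPL37 and 0.60 for RPL36. Leaving out animal 107 or animal 206 gave 0 members upregulated at 48 h, and leaving out animal 104 gave 12. RPL35, a neighbour of RPL23A at the tunnel exit, followed with 181 to 222 CPM at 0 h (median 185), 318 to 437 CPM at 72 h (median 387) and a log2 fold change of 0.94.

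RPLP1 and RPLP2 form the stalk of the large subunit, the arm that recruits translation factors. RPLP1 had 924 to 1404 CPM at 0 h (median 1135) and 1802 to 2853 CPM at 72 h (median 2176). Its part of the members' summed CPM went from 9.04% ± 0.64 at 0 h to 10.03% ± 0.78 at 72 h and was higher in 7 of 7 animals. RPLP2 had 93.6 to 129 CPM at 0 h (median 117) and 163 to 252 CPM at 72 h (median 191). The log2 fold changes at 72 h were 0.93 for RPLP1 and 0.83 for RPLP2.

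RPL5 and RPL11 bring the smallest ribosomal RNA into the large subunit and, when free, bind MDM2, the inhibitor of p53. RPL5 had 240 to 323 CPM at 0 h (median 302) and 396 to 538 CPM at 72 h (median 481). RPL11 had 115 to 148 CPM at 0 h (median 128) and 172 to 222 CPM at 72 h (median 205). Both were in the lower part of the range, with log2 fold changes of 0.66 and 0.61. RPL8, a core protein near the catalytic centre, had the lowest log2 fold change, with 174 to 218 CPM at 0 h (median 202) and 259 to 342 CPM at 72 h (median 296). RPL9 had 185 to 248 CPM at 0 h (median 220) and 306 to 364 CPM at 72 h (median 328). Even for RPL8 and RPL9 every sample of 72 h lay above every sample of 0 h.

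RPL13A, which in other cells can leave the ribosome and silence inflammatory messenger RNAs, had 348 to 470 CPM at 0 h (median 417) and 598 to 765 CPM at 72 h (median 714). The log2 fold change was 0.75 ± 0.05 (SE). RPL36A and RPL36AL encode near-identical proteins, and reads of the 2 genes may not be fully separated. RPL36A had 71.5 to 86.9 CPM at 0 h (median 77.0) and 118 to 158 CPM at 72 h (median 132), with a log2 fold change of 0.77. RPL36AL had 28.1 to 33.6 CPM at 0 h (median 29.5), 39.6 to 53.9 CPM at 72 h (median 47.6) and a log2 fold change of 0.64. RPL36AL was the only paralog among the 9 listed that had a name in the table of DE genes.

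The proportions among the members moved by small amounts, in some genes the same way in every animal. RPL23A went from 0.722% of the summed member CPM at 0 h to 0.860% at 72 h, a part that rose in 7 of 7 animals. RPL8 went from 1.54% to 1.35%, and its part rose in 0 of 7 animals. Both genes were named for their place near the ends of the range of fold changes at 72 h. That choice favours these counts of animals, which are a description. In the mean over animals the part rose for 32 members. A member's part of the summed member CPM at 72 h was 0.878 to 1.23 times its part at 0 h, and the 10 members with the most reads, a number that transcript length bears on too, held 32.5% at 0 h and 33.0% at 72 h. By subunit, the median log2 fold change at 72 h was 0.79 for the 35 large subunit genes and 0.72 for the 27 of the small subunit. Taken animal by animal, the large subunit median exceeded that of the small subunit by 0.06 ± 0.04 (SD) at 72 h, in 7 of 7 animals, and by -0.0036 ± 0.014 at 6 h, where it was above in 3 of 7. In the step from 24 to 48 h the large subunit median was above by 0.026 ± 0.013, again in 7 of 7 animals. The difference between the subunits was not tested.

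The step from 6 to 24 h shared no samples with the lists that held members. No member was higher at an FDR below 0.05 by edgeR's quasi-likelihood test (0.0342% of all genes tested), and at an unadjusted p below 0.05 there were 0 higher (2.95% of all genes) and 0 lower (3.33%). DESeq2 also gave 0. The median of the members was 0.03, but the animals went different ways. In animal 101 all 62 members were lower at 24 h than at 6 h (median -0.27), and in animal 107 58 were lower (median -0.09). In animal 206 all 62 were higher (0.34). The other 4 animals lay between 0.03 and 0.12.

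From 24 to 48 h 60 of the 62 members were higher at an FDR below 0.05 (9.56% of all genes tested), and 0 passed the fold change of 1.5 as well (0.376%). The 3 members of the 48 h list, RPL36, RPL37 and RPL23A, had the largest log2 differences of the set, 0.34, 0.31 and 0.30, which are a description because the 48 h samples had a part in naming them. Among the 59 others, which no 48 h sample named, 57 were higher at an FDR below 0.05, with a median of 0.23. Their log2 differences ran from 0.03 for the RPS29 copy of low counts (FDR = 0.96) to 0.30 ± 0.06 (SE) for RPL19 (FDR = 0.0036, higher in 7 of 7 animals), a large subunit gene named here for that value. RPL13A, with 405 to 552 CPM at 24 h (median 498) and 545 to 662 CPM at 48 h (median 566), had the lowest FDR of the set (log2 difference 0.28 ± 0.05, SE, FDR = 0.0026). RPS6 was higher by 0.24 ± 0.06 (FDR = 0.0083) and RPLP1 by 0.25 ± 0.07 (FDR = 0.010), each in 7 of 7 animals. The other member that missed the FDR was RPS24, a small subunit gene named here after its value was seen (0.15 ± 0.06, FDR = 0.065). The groups mostly overlapped: only for RPL5, RPL13 and RPS15 did every sample of 48 h lie above every sample of 24 h (0.164% of all genes tested), and the last 2 genes are named for that reason.

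The calls of this step depended on the pairing of samples by animal and on 2 carcasses. Without animal as a block 0 members were higher at an FDR below 0.05. The animal medians were 0.46 in animal 107 and 0.42 in animal 101, and 0.08 to 0.24 in the other 5. Leaving out animal 107 left 10 members at an FDR below 0.05 and leaving out animal 101 left 23, while leaving out any of the others left 52 to 59. Scaling by total counts alone left 8, with a median of all genes of -0.10 in this step. Over the same step the erythroid genes HBB and HBA, which encode the chains of haemoglobin, were upregulated (log2 difference 3.71 ± 0.77, SE, FDR = 0.0033, and 3.58 ± 0.73, FDR = 0.0029), in 6 of 7 animals each. Their summed level was 0.120 to 6.76 CPM at 24 h (median 0.364) and 0.126 to 72.1 CPM at 48 h (median 5.02), and their part in the values of this step was not tested.

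The step from 48 to 72 h shares its 72 h samples with the choice and is a description. All 62 members were higher at an FDR below 0.05 (16.5% of all genes tested), with a median of 0.30, and 0 passed the fold change of 1.5 as well (0.786%). The order of the animals was other than before. Animal 201 had a median of 0.53, animal 103 of 0.48 and animal 104 of 0.41, while animal 101 had 0.13 and animal 107 only 0.07. Animals 101 and 107 thus made most of their rise after 24 h before 48 h, and animals 201, 103 and 104 after 48 h. Differences in timing between animals rest on 1 library for each animal and time point and were not tested.

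**Figure D4:**
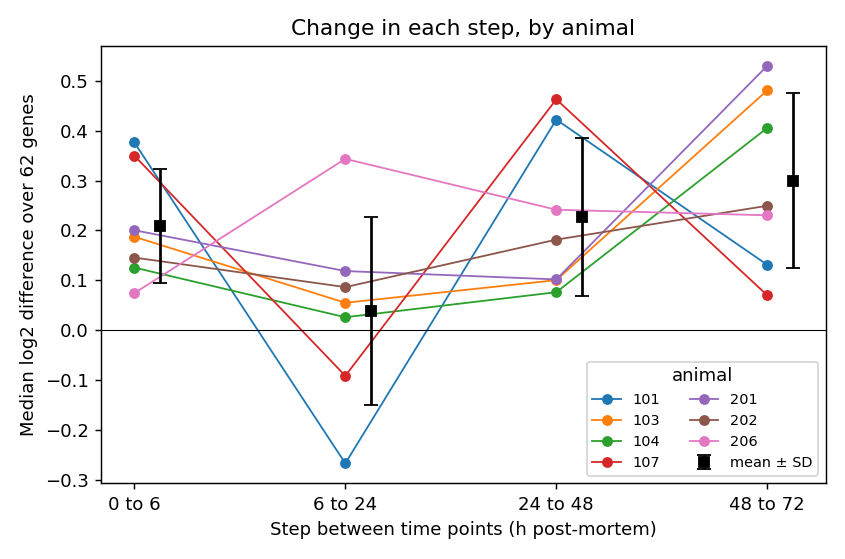
Median log2 difference of the 62 genes in each step between neighbouring time points, with a coloured line for each animal and black squares for the mean ± SD over the 7 animals. Animals 101 and 107 fall between 6 and 24 h (-0.27 and -0.09) and rise by 0.42 and 0.46 between 24 and 48 h, while animals 103, 104 and 201 rise by 0.41 to 0.53 between 48 and 72 h.

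The members also varied together. With log2 CPM centred within each animal, the median Pearson r over the 1891 pairs of members was 0.98 across the 35 samples. With the time points centred too, so that only the deviations of single libraries were left, it was 0.88. In that second measure a member had a median r of 0.94 with the mean of the other members. The 14568 other genes had a median r of 0.01 with the mean of the members (5th to 95th percentile -0.71 to 0.71). With centring within animals only, these medians were 0.99 and 0.04 (-0.92 to 0.92). The points share their libraries and scaling factors, and values were centred on the same data, so these figures describe the set and carry no test. The lowest r with the other members, 0.42, was that of the RPS29 copy of low counts.

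Likeness to the members was measured by r with their mean across the 35 samples after centring within animals. Among the 5 other genes most like them were NPAS2 (0.996), ZC3H10 (0.991), PFDN5 (0.991) and PPP1R1A (0.989). PFDN5 encodes a subunit of the prefoldin chaperone. NPAS2 encodes a transcription factor of the circadian clock, and its log2 fold change at 72 h was 0.95. In the RefSeq annotation of another assembly, ARS-UCD2.0, the ribosomal protein gene RPL31 lies 2 places from NPAS2 among the protein coding genes of the chromosome. RPL31 has no name in the table of DE genes and was not analysed here. Whether reads of RPL31 were counted under the ID named NPAS2 was not tested, so that the r and the fold change given for NPAS2 may not be those of NPAS2 expression. All 61 member symbols were found in that annotation.

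FAU, a fusion gene outside the rule whose ribosomal part belongs to the small subunit, was also upregulated. It rose from 118 ± 10.96 CPM (SD, n = 7) at 0 h to 201 ± 22.8 CPM at 72 h (log2 fold change 0.76). In the step from 24 to 48 h FAU was higher by 0.20 ± 0.06 (SE, FDR = 0.018), in 7 of 7 animals.

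Genes that act around the ribosome were taken from lists of translation factors and regulators. Since names came from the table of DE genes, a count over them says nothing of the list members that did not change. Of the 40 initiation factors 3 had a name: EIF3H and EIF5B, which serve scanning and the joining of the subunits, were upregulated at 72 h (0.67 and 0.72), and EIF4G2, which drives cap-independent initiation, was downregulated (-0.72). Of the 10 genes of elongation, EEF2K, the kinase that inhibits elongation factor eEF2, was downregulated from 262 ± 39.4 CPM at 0 h to 134 ± 35.8 CPM at 72 h (-0.99 ± 0.14, SE, FDR = 4.5e-07), in 7 of 7 animals. Of the 6 other genes listed for TOP messenger RNAs, TPT1 (0.73) and NACA (0.97) were upregulated.

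Among the named genes that make and control ribosomes, some were upregulated and some downregulated. Of 31 genes of ribosome biogenesis 4 had a name. NHP2 (0.70), of the particles that modify ribosomal RNA, and NOP16 (0.63), of large subunit assembly, were upregulated at 72 h. NIP7 (-1.62) and TSR1 (-0.59), which serve the maturation of the subunits, were downregulated. The 2 named genes of RNA polymerase I, which transcribes ribosomal RNA, were both upregulated: POLR1D (0.65) and TAF1D (0.66). Of 16 signalling genes 7 had a name, with 2 upregulated and 5 downregulated. MTOR, the kinase at the head of TOP control, fell from 43.0 ± 5.52 CPM at 0 h to 26.8 ± 5.20 CPM at 72 h (-0.69 ± 0.09, SE, FDR = 5.6e-08). RPTOR, its partner in complex formation, also fell (-0.62). TSC1, an inhibitor of the pathway, fell too (-0.87), as did RPS6KA3 (-1.60), a kinase of RPS6.

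The translational repressors of the EIF4EBP family, which mTOR inactivates, moved in both directions. EIF4EBP1 rose from 26.0 ± 5.35 to 43.4 ± 6.86 CPM (0.75 ± 0.07, SE, FDR = 1.3e-09). EIF4EBP2 fell from 157 ± 16.2 to 59.0 ± 24.7 CPM (-1.47 ± 0.17, FDR = 2.2e-08). EIF4EBP3 rose (0.78). Over the lists of initiation, elongation, biogenesis, RNA polymerase I, signalling and TOP genes together, 10 named genes were upregulated and 9 downregulated at 72 h. Of all genes tested 9.8% were upregulated and 15.4% downregulated. Only DE genes had names, and the downregulated names at 72 h are held in part, so the balance of directions cannot be read from these counts. Scaled by total counts alone, 2 of the named translation genes were upregulated. Mitochondrial ribosomal proteins serve the separate ribosome of that organelle. Their list held only the 22 genes with a name in the table of DE genes, so those that did not change are missing. At 72 h 21 of the 22 were upregulated and 1 downregulated. The median log2 fold change of 0.68 is that of genes chosen as DE and is a description.

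**Figure D5:**
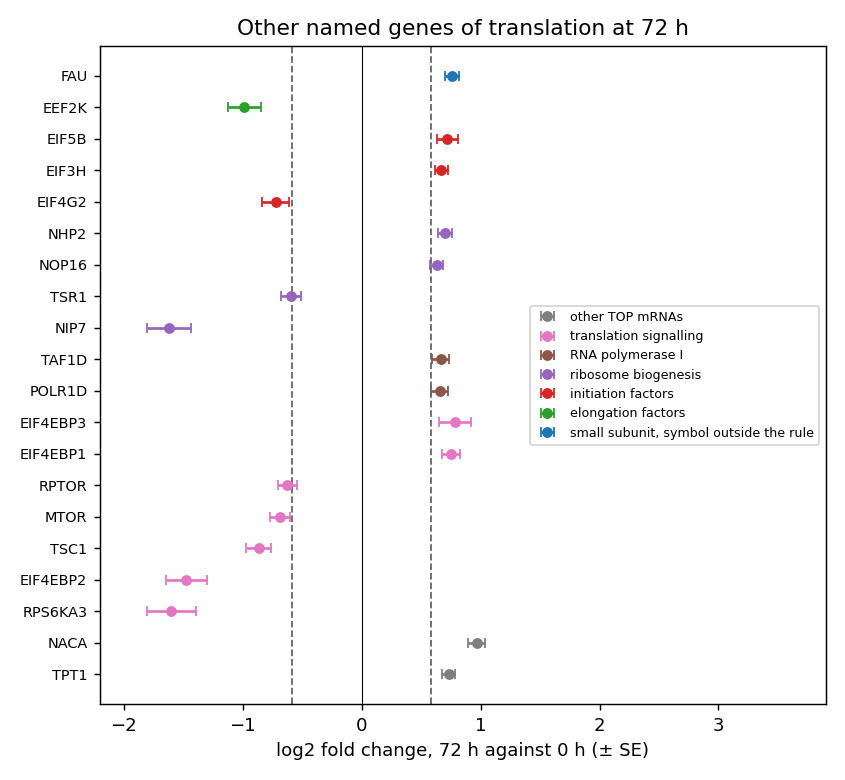
log2 fold change at 72 h against 0 h of other named genes of translation, with bars of ± 1 standard error and a colour for each list. Dashed lines mark a fold change of 1.5 in either direction, and the values run from -1.62 (NIP7) to 0.97 (NACA).

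Markers of other cell types moved over the same hours, and their part in the values above was not tested. Only DE genes had names, so markers that did not change are missing and the counts by direction are a description. Of all genes tested 9.8% were upregulated and 15.4% downregulated at 72 h. Of 10 genes of muscle fibres 3 had a name, TNNT3, TNNI2 and CKM, and their summed level was 26868 to 32207 CPM at 0 h and 45364 to 68223 CPM at 72 h. Of 9 macrophage genes 7 had a name, all downregulated at 72 h, with a sum of 47.1 to 155 CPM at 0 h and 16.0 to 53.0 CPM at 72 h. The 5 adipocyte genes were all downregulated, with sums of 27.0 to 254 CPM and 6.03 to 8.71 CPM, and PDGFRA, the 1 named gene of 6 for fibroblasts, was downregulated (-1.01). Of 10 genes of T and NK cells 7 had a name, all upregulated, with sums of 7.33 to 13.7 CPM at 0 h and 15.4 to 20.6 CPM at 72 h. Of 6 B cell genes 2 had a name, with sums of 0.208 to 0.542 CPM at 0 h and 0.450 to 2.28 CPM at 72 h. Of 5 erythroid genes 2 had a name, HBB and HBA, and both were upregulated at 48 h (4.59 and 5.13). They were lower again at 72 h than at 48 h (-3.51 and -3.79), with sums of 0.0520 to 3.59 CPM at 0 h and 0.152 to 5.90 CPM at 72 h, where neither was called against 0 h. Of 6 endothelial genes 0 had a name. LEP and ADIPOQ of the adipocyte list and HBA of the erythroid list were at 0 in 1 or 2 samples of some time points, and no other named marker was. RNA integrity was not analysed here.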

How the data were processed

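The authors trimmed the paired reads with Trimmomatic (version 0.39), mapped them with STAR (version 2.7.0f) to ARS-UCD1.2 and counted them over exons with featureCounts (version 1.6.4), per the labels and the methods. The deposited values are raw counts per gene, whole numbers without normalization. Counting is described as strand specific, with tests on counts of the sense strand, although the unstranded option is printed. The deposited counts are labelled as those of the reverse strand. How reads of overlapping genes were assigned is therefore uncertain.

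Samples were grouped by the time point and animal in their labels. Genes were filtered with filterByExpr (minimum count 10) and scaled by TMM in edgeR (version 4.0.16, R 4.3.3). A model with animal as a block was fitted to all 35 samples, with quasi-likelihood tests and Benjamini-Hochberg adjustment (FDR) over 14630 genes. A prior count of 2 was added for log2 values of single samples. Standard errors come from the fit. The animal number pairs the samples, since a number is 1 carcass: deviations from time point means had a median r of 0.58 over 70 pairs within animals (all above 0.1) and -0.11 between animals. The fit was tested on simulated data. Alternatives used DESeq2 (version 1.42.0), limma voom (version 3.58.1) and other factors, filters and thresholds, thinned counts, a fit of 2 time points and 1 animal fewer.

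The members and all gene lists were chosen with earlier results of these data known. The genes named were members upregulated at 48 h, the 5 highest and 5 lowest at 72 h, the 3 with the most and the 3 with the fewest CPM, the 3 largest and 3 smallest standard errors, symbols with 2 IDs, the RPL36A pair and genes with known further roles, 22 in all. In the lists it was the 2 highest and 2 lowest named genes, and others are named as the remainder of a small count. Symbols came from the study's table of DE genes, of which the downregulated part at 72 h is held here in part. The order of genes along chromosomes was read from the RefSeq annotation of ARS-UCD2.0. No sequences or gene lengths were used here, so that the ranks by CPM that chose genes to name are ranks of reads and not of transcript levels. Values of some single genes are not reported here.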

Additional observations from a re-analysis of the deposited data

Results flagged for a closer look

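In 122 groups of 7 values (shares of counts, animal medians, and CPM of the 22 named members at each time point), 10 had a highest value set apart from the other 6 by more than 0.568 of the range. The lowest value of each group was checked in the same way, and chance sets apart either end in about 1 in 20 groups. Members rise and fall together in a library, so that the 10 are not separate findings. Animal 206 at 48 h was the highest sample for 8 of them: RPL8 (304 CPM), RPL11 (187 CPM), RPL13A (662 CPM), RPS6 (349 CPM), RPS12 (323 CPM), RPS21 (116 CPM) and both RPS29 genes (220 CPM for ENSBTAG00000052337 and 0.948 CPM for ENSBTAG00000025666). That library had the smallest total of the series, 20568418 counts. At 24 h animal 206 was also set apart for RPL36, at 167 CPM. Animal 104 was set apart at 0 h for RPL37, at 142 CPM. The share of counts and the animal medians gave no such value.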

How the results depend on the processing

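The members' median log2 fold change kept its sign in all 19 refits for each comparison with 0 h and for the steps from 24 to 48 h (0.13 to 0.25) and 48 to 72 h (0.21 to 0.34), but not from 6 to 24 h (-0.02 to 0.08). With scaling by total counts alone the median at 72 h was 0.61, where the median of all genes was -0.16, and 34 members were upregulated at 72 h, 0 at 48 h and 8 higher from 24 to 48 h. The glmTreat test gave 40 upregulated at 72 h and 0 at 48 h. At 48 h, 5 were upregulated with RLE factors, 9 with upper quartile factors, 5 with TMM factors from the other genes and 5 with the filter of 1 CPM in 7 samples. With no fold change threshold the numbers were 23 (6 h), 55 (24 h), 62 (48 h), 60 from 24 to 48 h and 62 from 48 to 72 h. Thinned counts gave 1 upregulated from 48 to 72 h. Members higher at 6 h at an FDR below 0.05 numbered 36 by the likelihood ratio test, 46 by DESeq2, 13 with upper quartile factors, 9 with no filter and 55 from the 2 time points alone.

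The pairing by animal mattered for the small steps: with no replicate block 0 members were higher at 6 h, 3 at 24 h and 0 from 24 to 48 h, and 57 from 48 to 72 h. It changed no other count by over 1.5 times. Leaving out each animal in turn gave 0 to 45 members higher at 6 h, 38 to 54 at 24 h and 10 to 59 from 24 to 48 h, with 0 to 12 upregulated at 48 h, 59 to 62 at 72 h and 0 to 1 from 48 to 72 h. The named translation genes downregulated at 72 h numbered 6 to 9 without single animals and 5 by glmTreat, and those upregulated 2 with total counts alone and 4 by glmTreat. Without the 10 genes of most counts in the total, the share of counts was 1.68% (0 h), 1.98% (6 h), 2.04% (24 h), 2.29% (48 h) and 2.71% (72 h). The cause of these differences was not tested. Of the 439 refitted values of the 22 named members at 72 h all kept their sign and 27 fell under the thresholds, 20 of them with total counts alone or glmTreat. Corrections for transcript length and GC content were not run.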
